A study of Mus musculus with 20 samples.

Results

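The 135 transcripts described here held more ribosome footprints on ribosomes captured through RPL22 than on all ribosomes of the same cell line, while their footprints on ribosomes captured through RPL10A or RPS25 stayed within set bounds of the totals. They were chosen by measured footprint values. For each line, the mean RPKM (a read density per transcript length and per sequenced library) of the 2 capture libraries plus 1 was divided by the mean of the 2 total libraries plus 1, and the log2 of this quotient is called the capture ratio. A transcript was taken when its RPL22 capture ratio was at least 0.4, its RPL10A ratio lay within 0.6 of 0 and its RPS25 ratio lay within 0.5 of 0. Of 7263 transcripts present in the tables of all 3 lines and of the RNA-seq libraries, 206 reached the RPL22 minimum. Of these, 71 fell outside a bound, 45 of them for RPL10A, 46 for RPS25 and 20 for both. The remaining 135 made up 1.86% of the common transcripts. The transcript uc007hnk.2, left out by name, also failed a bound.

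RPL22 is a protein of the large ribosomal subunit, as is RPL10A, whereas RPS25 belongs to the small subunit. RPL22 sits near the surface of the subunit and is not required for the survival of mice, which carry the close paralog Rpl22l1. Capturing ribosomes through a tagged protein and sequencing the mRNA fragments they protect compares what ribosomes holding that protein were translating with what all ribosomes were translating. In a sucrose gradient, mRNAs sediment by the number of ribosomes on them, so that strongly loaded mRNAs collect in the heavy polysome fractions.

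All libraries came from the mouse embryonic stem cell line E14, which is pluripotent and was grown with leukemia inhibitory factor, and all cells received 100 µg/ml cycloheximide, which stalls elongating ribosomes, for 1 min before harvest. Ribosome profiling covered 12 libraries from 3 lines in which 1 allele of a ribosomal protein gene carried a tag at its own locus, namely Rpl22-3xHA, 3xFLAG-Rpl10a and Rps25-3xFLAG, with 2 capture and 2 total libraries each. The 8 RNA-seq libraries were made from pooled gradient fractions of wild-type cells, in 4 groups of 2: Rpl10a siRNA heavy, Control siRNA heavy, Rpl10a siRNA light and Control siRNA light. Heavy stands for the pooled fractions of 4 or more ribosomes per mRNA, and light for all remaining fractions, which include free ribonucleoproteins and single ribosomes. A single siRNA against Rpl10a was used, and the untagged allele of each tagged line remained, so that captured ribosomes are those that took up the tagged copy. The RPL22 capture used an anti-HA antibody and a lysis buffer listed without heparin, whereas the other captures used anti-FLAG beads and a buffer with heparin. For the RPL22 libraries titled total, the antibody label likewise gives anti-HA, and they were used as totals here.

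The tables name transcripts by UCSC identifiers, of which 0 matched the reference tables used here, so no gene name, role or sequence is given for any of them. For the same reason neither the siRNA target Rpl10a nor markers of embryonic stem cells were checked. The RNA-seq columns summed to between 943664 and 1067209, and no file gives read counts, so the depth is unknown.

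In the RPL22 line, the median footprint level of the 135 transcripts was 56.8 and 57.9 RPKM in the 2 capture libraries and 35.2 and 42.4 RPKM in the 2 total libraries. Across all 7263 common transcripts the medians were 27.5 and 28.0 RPKM in the capture libraries and 28.1 and 28.4 RPKM in the total libraries. The median of the 135 thus lay above the common median in all 4 libraries, and was higher in the capture libraries than in the totals. Their RPL22 capture ratio had a median of 0.46, which is 1.37-fold, with quartiles of 0.43 and 0.51 and a highest value of 0.82. The median over all common transcripts was −0.04 (SD 0.21 across transcripts). Many of the 135 sat close to the minimum, since 61 were under 0.45, whereas 42 reached 0.5 and 14 reached 0.6. The 3 values just inside the minimum were 0.4018, 0.4021 and 0.4024, and the 3 just outside were 0.3998, 0.3998 and 0.3994. Since these values chose the transcripts, they describe the choice and carry no test.

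Both RPL22 capture libraries lay above both total libraries in 129 of the 135 transcripts (95.6%), against 21.5% of all 8588 transcripts in that line's tables, and below them in 0 of the 135, against 31.4%. The pairs of equal replicate number differed in size, with a median ratio of 0.57 for replicate 1 and 0.38 for replicate 2. Of the 135 transcripts, 131 had a ratio above 0 in both pairs and 45 reached 0.4 in both. The rule used these same libraries, so the counts here follow largely from the choice and carry no test. The first pair also had the lower total, at the medians given above.

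**Figure D1:**
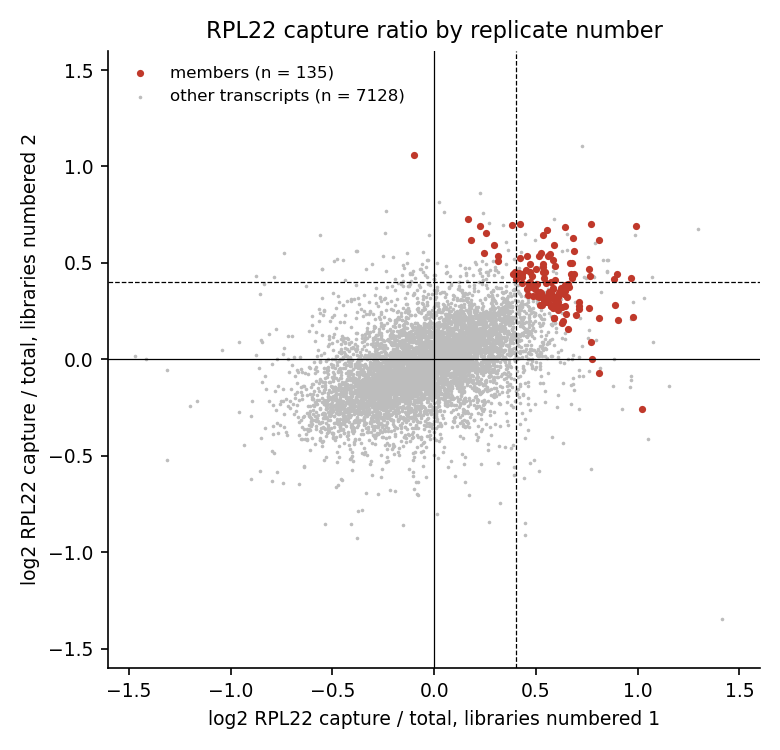
RPL22 capture ratio (log2) of each common transcript from replicate 1 (horizontal) and replicate 2 (vertical); the 135 chosen transcripts are red, the other 7128 grey, and dashed lines mark 0.4. Most red points lie right of the vertical line, and 45 of 135 lie past both lines.

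The limma fit of log2(RPKM + 1), whose contrast the choice used, called 0 of the 135 in the RPL22 capture at an adjusted p below 0.05, against 0.0% of 8588 transcripts. The smallest adjusted p in that fit was 0.105, and 129 of the 135 had an unadjusted p below 0.05, against 1734 of all 8588. It called 0 of the 135 in the RPL10A capture, against 1.46% of transcripts, and 0 in the RPS25 capture, against 0.0456%. With the replicate number as a block, 108 of the 135 and 692 of all transcripts were called in the RPL22 capture. Nothing about the 135 is read from these counts, because the same libraries selected them.

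In the other 2 lines the capture ratios of the 135 centred near 0, within the bounds that the choice set. Those bounds, 0.6 and 0.5, are wider than the RPL22 minimum of 0.4, so a chosen transcript could be as enriched in another capture. The RPL10A ratios ran from −0.59 to 0.57 and the RPS25 ratios from −0.47 to 0.47. The highest RPL10A ratio, 0.57 in uc007vbd.1, exceeded the RPL22 ratio of that transcript, 0.43. The RPL10A ratio had a median of −0.11, against 0.00 over all common transcripts, with 52 of the 135 above 0 and 82 below. The RPS25 ratio had a median of −0.01, against 0.01, with 67 above 0 and 68 below. Both RPL10A capture libraries lay above both totals in 23 of the 135 (28.0% of all transcripts did) and below them in 32 (28.7%). In the RPS25 line both capture libraries lay above both totals in 22 (27.9%) and below them in 32 (25.9%).

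The totals of the 3 lines were themselves not level for these transcripts. Their RPL22 total lay at a median of −0.14 on the log2 scale relative to the mean of the RPL10A and RPS25 totals, against −0.03 for all common transcripts. The RPL22 capture lay at 0.35 relative to the same mean, with 99 of the 135 above 0, against −0.07 for all common transcripts. The 171 transcripts chosen the opposite way, with an RPL22 ratio at or under −0.4 and the same bounds, also had a low RPL22 total, at a median of −0.16. The lines were normalized in separate tables and differ in tag, so these are levels set side by side across tables, and the RPL22 values among them are those that chose the transcripts.

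By the naming rule, 2 of the 135 represent the highest RPL22 ratios among the well-footprinted transcripts. The transcript uc007evg.1 had 168.2 and 204.2 RPKM in the RPL22 capture libraries and 98.0 and 125.2 RPKM in the RPL22 totals, a ratio of 0.73. In the RPL10A line it had 90.9 and 84.7 RPKM in the capture libraries and 109.8 and 80.6 RPKM in the totals, and in the RPS25 line 69.4 and 51.8 RPKM in the captures and 55.9 and 55.4 RPKM in the totals. Its capture and total values were apart in the RPL22 line and overlapped in the other lines. The transcript uc008rqt.1 had 55.3 and 52.7 RPKM in the RPL22 capture libraries and 31.1 and 34.0 RPKM in the totals, a ratio of 0.71. Its RPL10A captures, at 21.7 and 22.3 RPKM, lay between its 2 RPL10A totals, so the groups overlapped there.

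The values of the polysome RNA-seq did not enter the rule, which asked only that a transcript be listed there, so they were tested. In the heavy fractions, 61 of the 135 were called lower and 14 higher with Rpl10a siRNA. The log2 difference was below 0 in 107 of the 135 (79.3%, against 49.3% of all transcripts) and above 0 in 28. The median of the 135 was 54.9 and 55.6 in the Rpl10a siRNA heavy libraries and 68.9 and 68.9 in the Control siRNA heavy libraries, in units of the deposited signal, which is reads scaled by library size but not by length. On the log2(value + 1) scale the median difference was −0.44 (quartiles −0.62 and −0.14), or 0.739-fold, against 0.01 for all 8084 transcripts in the RNA-seq tables. Limma called these 61 lower (45.2%), against 22.7% of all transcripts, and the 14 higher (10.4%), against 26.8%. In either direction this made 75 of 135 (55.6%), against 49.5%. Without the 16 transcripts of neighbouring identifiers described below, it was 59 of 119 (49.6%). Both Rpl10a siRNA libraries lay below both Control siRNA libraries in 89 of the 135 (65.9%), against 36.0% of all transcripts. With equal library totals the split was 16 higher and 44 lower, together 60 (44.4%, against 45.7% of all transcripts). With aligned library medians it was 10 higher and 79 lower, together 89 (65.9%, against 51.5%). Both splits stand without shares of all transcripts by direction, so only the sums can be compared. Leaving out library 2 of the Control siRNA heavy group left 29 of the 135 called (21.5%, against 18.6% of all transcripts), and leaving out library 1 of the Rpl10a siRNA heavy group left 48 (35.6%, against 31.7%). Without 1 library, the median of the 135 minus that of all transcripts lay between −0.58 and −0.29, the smallest gap being without library 1 of the Rpl10a siRNA heavy group. Scaling moved all transcripts by more than 0.1, to a median of 0.12 with equal library totals and −0.12 with aligned library medians. The median of the 135 moved with it, to −0.33 and −0.57, since a scaling factor shifts every transcript of a library alike. Each library is scaled to itself, so a change in how much mRNA the heavy pool held, and fewer cells against less RNA per cell, cannot be told apart.

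**Figure D2:**
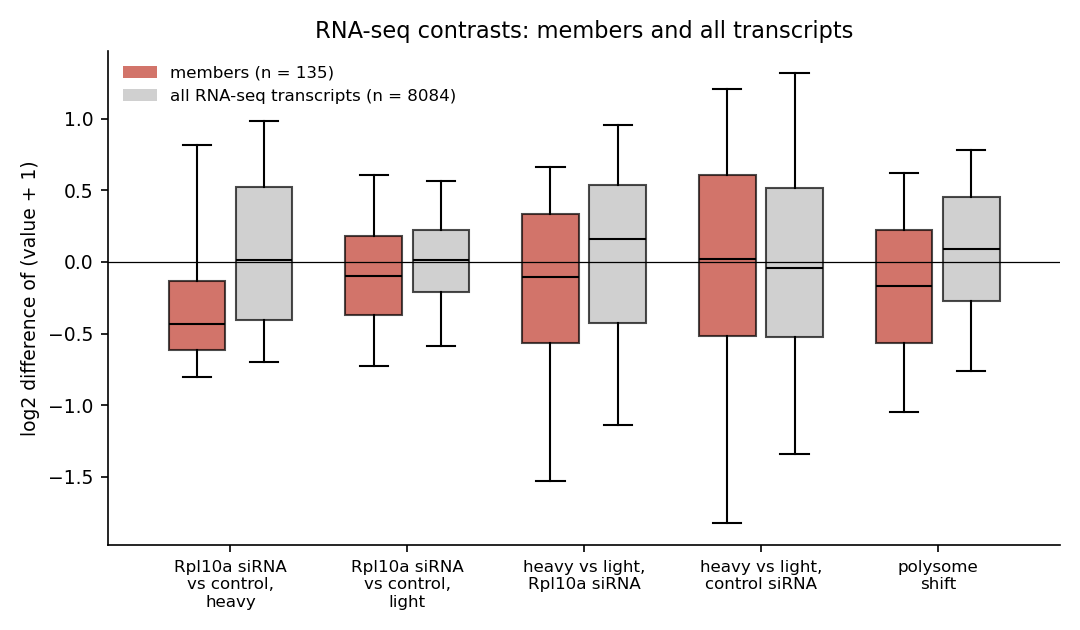
Log2 differences of the polysome RNA-seq for the 135 transcripts (left of each pair) and all 8084 (right), with lines at the median, boxes at the quartiles and whiskers at the 5th and 95th percentiles. The boxes stand furthest apart for Rpl10a siRNA in the heavy fractions, with medians of −0.44 and 0.01.

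The lower calls took in transcripts of moderate level with well separated groups. The transcript uc007yen.2 had 60.3 and 52.4 in the Rpl10a siRNA heavy libraries and 106.2 and 114.5 in the Control siRNA heavy libraries. Its log2 difference was −0.96 (SE 0.15, limma adjusted p = 0.00356), and neither Rpl10a library came near the controls. Its capture ratio was 0.45 for RPL22 and nearly the same for RPL10A, at 0.44. The transcript uc008eni.1 had 54.9 and 41.0 with Rpl10a siRNA and 94.9 and 89.9 with Control siRNA, a log2 difference of −0.95 (SE 0.24, limma adjusted p = 0.0147). That call was lost in 3 of the 8 fits that each left out 1 library. The capture ratios of uc008eni.1 were 0.42 for RPL22 and −0.13 for RPL10A.

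Of the 14 that were higher, the naming rule took 2. The transcript uc009tho.1 had 298.5 and 246.4 in the Rpl10a siRNA heavy libraries and 134.9 and 106.7 in the Control siRNA heavy libraries, a log2 difference of 1.17 (SE 0.15, limma adjusted p = 0.00250). Its capture ratios were 0.42 for RPL22 and −0.58 for RPL10A. The transcript with the top RPL22 ratio by the naming rule, uc007evg.1, moved the same way, with 66.3 and 104.9 in the Rpl10a siRNA heavy libraries and 36.6 and 40.2 in the Control siRNA heavy libraries. Its log2 difference was 1.10 (SE 0.22, limma adjusted p = 0.00591). The other transcript named for its RPL22 ratio, uc008rqt.1, went the opposite way, with 47.9 and 61.8 in the Rpl10a siRNA heavy libraries, 68.9 and 79.5 in the Control siRNA heavy libraries and a log2 difference of −0.44 (SE 0.15, limma adjusted p = 0.0363). High RPL22 ratios therefore accompanied both directions.

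In the light fractions, 13 of the 135 were called lower and 3 higher with Rpl10a siRNA. The log2 difference was below 0 in 77 of the 135 (57.0%, against 47.9% of all transcripts) and above 0 in 58. The median of the 135 was 62.2 and 60.9 in the Rpl10a siRNA light libraries and 72.9 and 68.5 in the Control siRNA light libraries. The median log2 difference was −0.10 (quartiles −0.37 and 0.18), against 0.02 for all transcripts. Limma called the 13 lower (9.63%), against 3.61% of all transcripts, and the 3 higher (2.22%), against 2.51%, which made 16 in either direction against 6.12%. With equal library totals the split was 9 higher and 13 lower, together 22 (16.3%, against 7.4% of all transcripts). That split, too, has no share of all transcripts by direction beside it. The count depended on single libraries. It was 32 (23.7%) without either Rpl10a siRNA heavy library, against 12.2% of all transcripts without library 1 and 12.1% without library 2. It was 3 (2.22%) without library 1 of the Rpl10a siRNA light group, against 1.11% of all transcripts, and 0 without library 2 of that group or without any of the 4 Control siRNA libraries. In those 5 fits limma called no transcript at all, so the 0 is not particular to the 135.

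The heavy and light comparisons share no library, although 1 fit gave the spread for both. Of the 61 transcripts called lower in the heavy fractions, 11 were also lower in the light fractions, 1 was higher and 49 were not called. Those 11 were most of the 13 called lower in the light fractions. Among all transcripts, 212 of the 1836 called lower in the heavy fractions were also lower in the light fractions (11.5%, against 18.0% here). Of those 1836, 26 were higher in the light fractions (1.42%, against 1.64% here). None of the 14 called higher in the heavy fractions was called in the light fractions. Over all transcripts, 113 of the 2164 called higher in the heavy fractions were called higher in the light fractions and 3 were called lower.

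**Figure D3:**
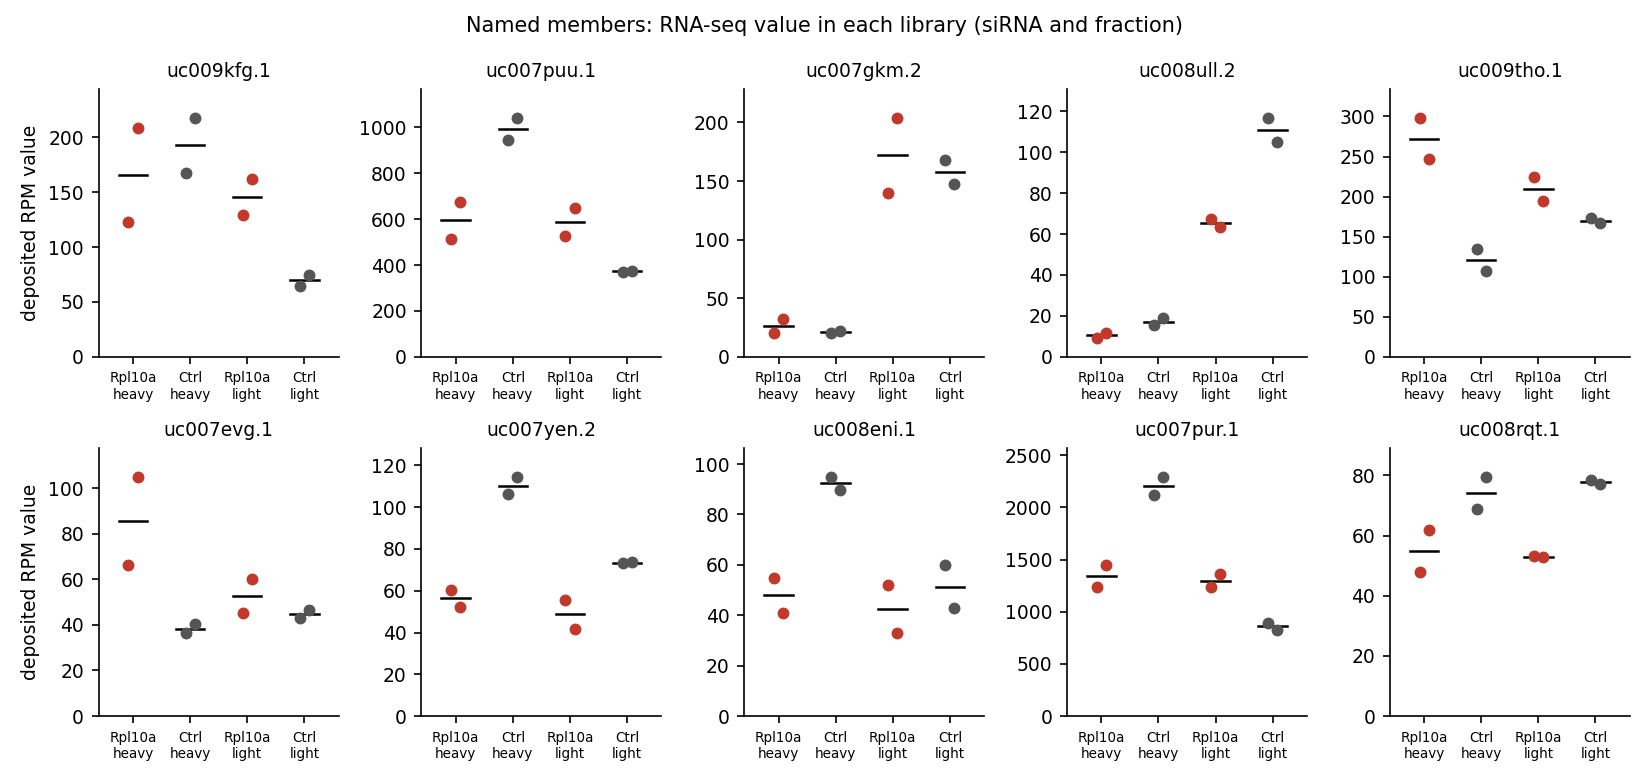
Deposited RNA-seq signal of the named transcripts, 1 panel each, with a point per library and a bar at the mean of 2, in the order Rpl10a siRNA heavy, Control siRNA heavy, Rpl10a siRNA light, Control siRNA light. In uc007yen.2 and uc008eni.1 the Rpl10a siRNA heavy points lie below the Control siRNA heavy points, and in uc009tho.1 and uc007evg.1 above them.

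Polysome position, the heavy minus light difference within a siRNA, placed the 135 on both sides. With Rpl10a siRNA the median position was −0.11 (quartiles −0.57 and 0.34), against 0.16 for all transcripts. Limma called 18 of the 135 heavier (13.3%), against 31.6% of all transcripts, and 39 lighter (28.9%), against 22.1%, which made 57 against 53.7%. With Control siRNA the median position was 0.02 (quartiles −0.52 and 0.61), against −0.04 for all transcripts. There 44 were called heavier (32.6%), against 28.0%, and 34 lighter (25.2%), against 26.4%, which made 78 against 54.4%. The shares with Control siRNA were thus near those of all transcripts.

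The positions under the 2 siRNAs compare different libraries, although 1 fit gave the spread for both. Of the 44 called heavier with Control siRNA, 14 were also called heavier with Rpl10a siRNA, 3 were called lighter and 27 were not called. Those 14 stood among 18 called heavier with Rpl10a siRNA. Over all transcripts, 1588 of 2266 called heavier with Control siRNA (70.1%) were called heavier again, against 31.8% here. Of those 2266, 11 (0.485%) were called lighter, against 6.82% here, and 29.4% were not called, against 61.4%. Of the 34 called lighter with Control siRNA, 29 (85.3%) were called lighter again, against 64.5% of all transcripts. Whether these shares differ beyond chance was not tested.

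Extreme positions were held by a few transcripts. With Rpl10a siRNA the transcript uc007gkm.2 had 20.5 and 32.5 in the heavy libraries and 139.9 and 204.1 in the light libraries. With Control siRNA it had 20.4 and 21.7 in the heavy libraries and 167.8 and 147.8 in the light libraries, a log2 difference of −2.85 (SE 0.23, limma adjusted p = 3.2e-05). Its scaled signal was thus higher in the light libraries under both siRNAs. Its capture ratios were 0.44 for RPL22 and 0.48 for RPL10A. With Rpl10a siRNA the transcript uc008ull.2 had 9.4 and 11.6 in the heavy libraries and 67.6 and 63.3 in the light libraries. With Control siRNA it had 15.5 and 18.8 in the heavy libraries and 116.9 and 105.0 in the light libraries, a log2 difference of −2.63 (SE 0.15, limma adjusted p = 1.1e-05). It was lower with Rpl10a siRNA in both pools, by a log2 difference of −0.66 in the heavy fractions (limma adjusted p = 0.0100) and −0.75 in the light fractions (limma adjusted p = 0.0353). Its RPL22 ratio of 0.62 rested on 1 capture library, with 52.9 and 27.6 RPKM in the captures and 27.8 and 23.8 RPKM in the totals.

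On the heavy side, uc009kfg.1 had 122.6 and 208.5 in the Rpl10a siRNA heavy libraries and 129.1 and 161.7 in the Rpl10a siRNA light libraries, which overlapped. With Control siRNA it had 167.4 and 217.8 in the heavy libraries and 64.2 and 74.9 in the light libraries, well apart, with a log2 difference of 1.45 (SE 0.25, limma adjusted p = 0.00137). The second transcript named on this side, uc007puu.1, had a log2 difference of 1.41 (SE 0.16, limma adjusted p = 0.000142) and is described with the shift.

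The shift is the position with Rpl10a siRNA minus the position with Control siRNA, tested as an interaction in the same limma fit. Its median over the 135 was −0.17 (quartiles −0.57 and 0.22), against 0.09 for all transcripts, and 82 of the 135 were below 0. The median over the 135 was −0.10 without library 1 of the Rpl10a siRNA heavy group and −0.27 without library 2 of that group. Limma called 12 shifted toward the light fractions (8.89%), against 3.57% of all transcripts, and 1 toward the heavy fractions (0.741%), against 2.86%, which made 13 against 6.43%. The count was 0 without any 1 of 7 of the 8 libraries, and 30 without library 2 of the Rpl10a siRNA heavy group (22.2%, against 25.6% of all transcripts). It was also 0 without the variance trend. In each fit with 0, limma called no transcript at all, so the 0 is not particular to the 135. With aligned library medians the median shift was −0.28 for the 135 and −0.02 for all transcripts. Under that scaling 1 of the 135 was called toward the heavy and 18 toward the light fractions, together 19 (14.1%, against 6.48%). No share of all transcripts by direction stands beside this split.

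Both transcripts named for the shift had large RNA-seq signals. The transcript uc007puu.1 had 512.5 and 675.7 in the Rpl10a siRNA heavy libraries and 524.4 and 646.6 in the Rpl10a siRNA light libraries. With Control siRNA it had 944.6 and 1042.0 in the heavy libraries and 368.5 and 375.1 in the light libraries. Its heavy and light values overlapped with Rpl10a siRNA and stood far apart with Control siRNA, a shift of −1.40 (SE 0.23, limma adjusted p = 0.0310). The transcript uc007pur.1 had 1235.4 and 1446.1 in the Rpl10a siRNA heavy libraries and 1232.7 and 1365.3 in the Rpl10a siRNA light libraries, against 2123.5 and 2291.9 in the Control siRNA heavy libraries and 896.0 and 829.5 in the Control siRNA light libraries. Its shift was −1.31 (SE 0.18, limma adjusted p = 0.0310).

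Both carry identifiers from a run of neighbouring UCSC numbers, those beginning uc007pr, uc007ps, uc007pt and uc007pu, which was noticed after the values were seen. The run holds 51 transcripts, all in every table, of which 16 are among the 135. Of the 12 transcripts called as shifted toward the light fractions, 9 lie in the run, as do 34 of the 289 over all transcripts. The 16 had RPL22 ratios between 0.41 and 0.49. The other 35 of the run had RPL22 ratios between 0.04 and 0.40, with a median of 0.30, all above 0. In the heavy fractions all 16 were called lower with Rpl10a siRNA, with a median of −0.71, and 32 of the other 35 were too, with a median of −0.70. In the light fractions 1 of the 16 was called higher, with a median difference of 0.17. The footprints of the 16 in RPL22 capture library 1 lay between 1887.6 and 3318.6 RPKM. Their mean RNA-seq signal, which is not scaled by length, lay between 4.94 and 2384.19. The 16 held 3.66% and 4.06% of the summed footprints in the RPL22 capture libraries, and the other 119 of the 135 held 1.33% and 1.29%. Whether the transcripts of the run share sequence or reads was not tested.

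Without the run, 119 transcripts remained, and 4 of them had a called shift. Their median shift was −0.11, with 3 called toward the light fractions (2.52%, against 3.57% of all transcripts) and 1 toward the heavy (0.840%, against 2.86%). In the heavy fractions these 119 had a median of −0.39. Limma called 45 of them lower (37.8%, against 22.7%) and 14 higher (11.8%, against 26.8%). In either direction this made 59 (49.6%, against 49.5%), about the share of all transcripts. In the light fractions 13 were called lower (10.9%, against 3.61%) and 2 higher (1.68%, against 2.51%), which made 15 (12.6%, against 6.12%). The share of the summed RNA-seq signal held by these 119 was 1.17% and 1.19% in the Rpl10a siRNA heavy libraries and 1.33% and 1.33% in the Control siRNA heavy libraries. For the 16 of the run it was 0.880% and 1.01% in the Rpl10a siRNA heavy libraries and 1.36% and 1.43% in the Control siRNA heavy libraries. In the light libraries the share of the 119 was 1.38% and 1.32% with Rpl10a siRNA and 1.58% and 1.57% with Control siRNA, and that of the 16 was 1.31% and 1.36% with Rpl10a siRNA and 1.40% and 1.32% with Control siRNA. The siRNA groups thus did not overlap for the 119 in either pool, and for the 16 they overlapped in the light pool.

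**Figure D4:**
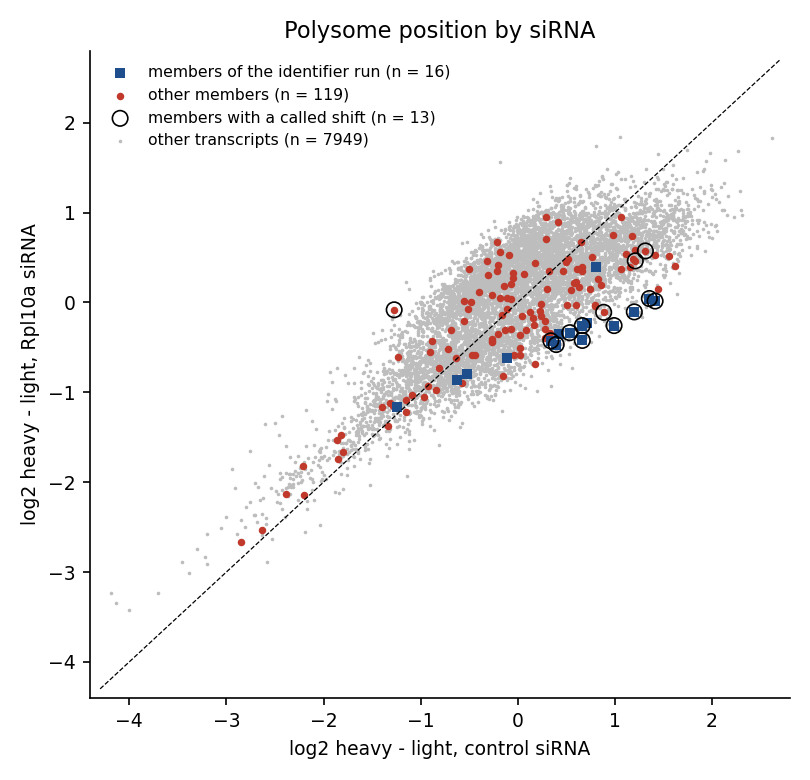
Polysome position (log2, heavy minus light) with Rpl10a siRNA (vertical) and Control siRNA (horizontal). Blue squares are the 16 transcripts of the identifier run, red points the other 119, black circles the 13 with a called shift, grey the other 7949, and the dashed line marks equal positions. Most of the circled points are blue squares below the line.

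The heavy-fraction difference varied gradually along the RPL22 ratio. Among the 5797 common transcripts within the RPL10A and RPS25 bounds, the median difference was −0.43 in the 42 with a ratio of at least 0.5 and −0.44 in the 93 between 0.4 and 0.5. It was −0.40 in the 184 between 0.3 and 0.4, just under the minimum, 0.00 in the 998 between 0 and 0.1, and 0.22 in the 171 at or under −0.4. The 135 were thus the end of a slope, with no step at the minimum. Across those 5797 transcripts the Pearson correlation of ratio and difference was −0.24, and across the 135 it was 0.06. These are correlations over transcripts, which share libraries and are not replicates. Of the 171 transcripts at or under −0.4, limma called 26 lower in the heavy fractions with Rpl10a siRNA (15.2%, against 22.7% of all transcripts). It called 62 of them higher (36.3%, against 26.8%).

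**Figure D5:**
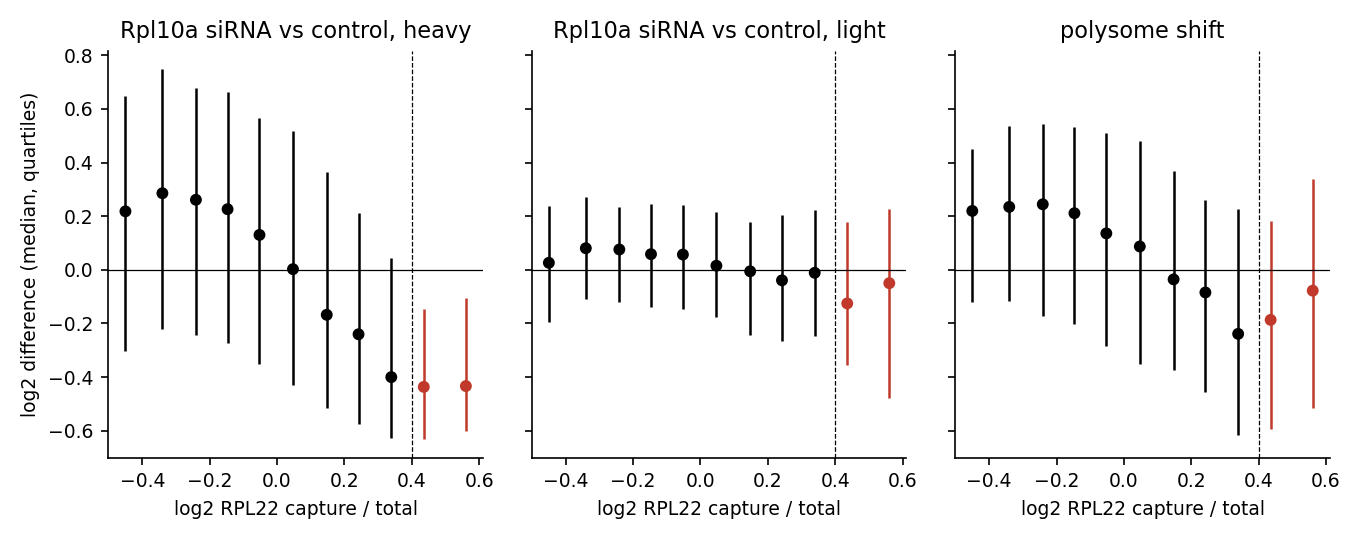
Median and quartiles of 3 log2 differences by bin of the RPL22 capture ratio, among the 5797 transcripts within the RPL10A and RPS25 bounds; red bins hold the 135 and the dashed line marks 0.4. In the heavy fractions the red bins have medians of −0.44 and −0.43, and the leftmost bin 0.22.

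The RNA-seq signal, which is not scaled by length, moved with the result. All transcripts were split by their mean signal into 5 levels of nearly equal size. In the highest level the median difference was −0.52 in the 41 that belong to the 135 and −0.30 in all. In the lowest level it was −0.15 in 16 of the 135 and 0.17 in all. The median of the 135 lay below that of all transcripts in each of the 5 levels. The part of the signal level in the heavy-fraction result was not tested.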

How the data were processed

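The authors deposited, per the file headers, RPKM per transcript for each ribosome profiling library, and for each RNA-seq library values headed RPM. Their column sums differ between libraries, so the deposited values were handled as a scaled signal. Cutadapt, Bowtie2 and, for RNA-seq, STAR with build mm10 are listed in the submitters' processing notes, without versions. Each line's tables were normalized separately. No counts were given, so no count model was used.

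Log2(value + 1) of all 8084 RNA-seq transcripts was fitted across the 8 libraries with limma 3.58.1 in R 4.3.3, with a variance trend, two-sided tests and Benjamini-Hochberg adjustment. A transcript was called at an adjusted p below 0.05. Each capture was fitted likewise on its 4 libraries. The script was tested on simulated data. Nothing in the labels ties replicates to separate cultures; the p-values therefore cover only the spread between these libraries, which may be technical. In the main fits, replicate numbers were not taken to pair libraries. They paired libraries only in the blocked fits, in the RPL22 ratios by replicate number and in the naming of transcripts for the shift.

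The transcripts and comparisons were chosen with earlier results of these data known. Named transcripts are, per direction, the 2 largest called changes with a mean at or above the median of all transcripts and libraries that do not overlap, and the 2 highest RPL22 ratios with a total at or above the common median. For the shift, the heavy minus light differences taken within each replicate number had to be without overlap between the siRNAs.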

Additional observations from a re-analysis of the deposited data

Results flagged for a closer look

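The effect of Rpl10a siRNA differed between the heavy and the light fractions, by the interaction in the limma fit, in 13 of the 135 transcripts, 12 toward the light fractions and 1 toward the heavy fractions. This was 9.63%, against 6.43% of all transcripts, and outside the run of neighbouring identifiers it was 4 of 119 (3.36%). The largest such differences among the named transcripts were a log2 shift of −1.40 for uc007puu.1 and −1.31 for uc007pur.1, both in that run. Each of these 2 calls was lost in 7 of the 8 fits that left out 1 library.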

How the results depend on the processing

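Among the named transcripts, no called value changed sign under any alternative run. For them, 139 of 158 alternative values stayed on the same side of the threshold and 19 lost the call, 17 of them with a library left out. The median position of the 135 with Control siRNA, 0.02, lay between −0.03 with equal library totals and 0.08 with aligned library medians. It so took either sign, and it was −0.07 in the 42 with a ratio of at least 0.5. The number of the 135 called in the heavy fractions ranged from 29 to 82 with 1 library left out. In the light fractions it was 16, and it was 4 without the variance trend, 28 when the light libraries were fitted alone, and 0 to 32 with 1 library left out. For the shift it was 13, and it was 0 without the variance trend, 2 among transcripts with a ratio of at least 0.5, 2 among those reaching 0.4 in both replicate pairs, 4 without the identifier run (chosen after seeing the data), and 0 to 30 with 1 library left out. Where an arm kept 1 library, it was assumed to vary like the others. In the heavy fractions, the fits with the fewest and the most of the 135 called also called the smallest and the largest shares of all transcripts. The range of the heavy-fraction count with 1 library left out is therefore not particular to the 135. The light-fraction share was 11.9% in the main fit, against 6.12% of all transcripts. Without the variance trend it was 2.96%, against 3.22%, and with the light libraries fitted alone 20.7%, against 9.27%. The shift share was 9.63% in the main fit, against 6.43% of all transcripts. It was 4.76% (2 of 42) at a ratio of at least 0.5 and 4.44% (2 of 45) with 0.4 reached in both pairs. Both of these shares lay below the 6.43%. With the replicate number as a block, 49 were called in the light fractions (36.3%, against 23.7% of all transcripts), 52 in the shift (38.5%, against 31.2%) and 99 in the heavy fractions (73.3%, against 64.9%); deviations of libraries with the same number correlated at 0.40 to 0.62, and the labels give no pairing. The cause of these changes was not tested. Unknown depth and 2 libraries a group limit every call.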
